A study of Mus musculus with 2 samples.

Results

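Matrix metalloproteinases (MMPs), the related ADAM and ADAMTS proteinases and the tissue inhibitors of metalloproteinases (TIMPs) were followed in cells separated from mouse Peyer's patches, which are organised lymphoid tissue in the wall of the small intestine. Members were the genes whose array name starts with Mmp, Adam or Timp and a digit, or with Adamts. The names took 84 genes with 165 probes, out of 24813 named genes and 56605 probes on the array. A member counted as measured when at least 1 of its probes was well above background on at least 1 array, which held for 41 of the 84, against 15246 of the 24813 named genes.

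The study compared S100A4-positive with S100A4-negative cells, with 1 array for each. Both fractions came from Peyer's patches of C57BL/6 mice that carry an S100A4-GFP transgene, in which green fluorescent protein reports S100A4, a small calcium-binding protein of the S100 family, and both were released with the same dispase, collagenase and DNase digestion. The comparison asks which transcripts differ between the fractions. How the cells were separated, which cells the transgene marks, and the number, age and sex of the mice are not given in the sources used here. With 1 array per fraction no difference has a replicate check, and no p-value is given.

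MMPs, ADAMs and ADAMTS enzymes are zinc-dependent proteinases. Secreted MMPs cleave collagens, gelatin, elastin and other matrix proteins, membrane-type MMPs act at the cell surface, and several ADAMs shed growth factors, cytokines and receptors from the cell surface, whereas ADAMTS enzymes process procollagens and proteoglycans in the matrix. TIMPs bind the active site of MMPs, and of some but not all ADAM and ADAMTS enzymes, and block it. In the gut the balance of proteinase and inhibitor is known for its part in cell migration through matrix and in epithelial defence.

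Values are relative signals, the processed signal of a probe with 100 set at the 75th percentile of its own array. Differences are S100A4-positive minus S100A4-negative on the log2 scale. The lowest signal that was well above background was 5.48 on the S100A4-positive array and 3.62 on the S100A4-negative array, so a dim gene had a lower bar to pass on the negative array. A gene seen on 1 array only has a bound, given as "at least": its bright signal over the other array's signal or, if higher, over that array's lowest signal well above background. The scanner software's error for a difference was between ± 0.20 and ± 0.34 for the 21 members seen on both arrays, and it leaves out the spread between mice, cell preparations and labellings. S100a4 itself read 41537 on the S100A4-positive array and 237 on the S100A4-negative array, which is 175-fold.

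Of the 41 measured members, 26 passed 2-fold upwards in S100A4-positive cells, 2 passed it downwards and 13 lay within it. The same calls took 21.3% (higher) and 17% (lower) of all 15246 measured genes. Members that passed the detection filter only through the array where they were bright had to differ, and there were 20 of these: 19 were well above background on the S100A4-positive array alone, where 7.5% of all measured genes were, and 1 on the S100A4-negative array alone, where 7.56% were. Of the 21 members seen on both arrays, 9 passed 2-fold upwards and 1 downwards, beside 17.7% (upwards) and 16.4% (downwards) of all genes seen on both. The median difference of those 21 was 0.74, against 0.01 over all 12951 genes seen on both. All of these directions are relative to each array's 75th percentile, since scaling on spike-in controls, which were 3.51-fold brighter on the S100A4-positive array, moved every difference by -2.44 and left 8 members past 2-fold upwards and 17 downwards. On that scale the same calls took 4.03% (upwards) and 82.6% (downwards) of all measured genes. The 8 were Mmp2, Mmp13, Mmp14, Mmp19, Mmp23, Adam8, Adam23 and Timp3. With another background correction (normexp, with an offset of 50) 18 were past 2-fold upwards and 0 downwards, beside 14.9% (upwards) and 11.5% (downwards) of all measured genes. Both downward calls, Mmp11 and Mmp16, were lost there, as were the upward calls of Adam1b, Adam22, Adamts2, Adamts14, Adamtsl4, Mmp7, Mmp8, Timp1 and Timp2, while Adam11 was gained. In bulk samples of separated cells, a larger share of expressing cells and more RNA per cell cannot be told apart.

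**Figure D1:**
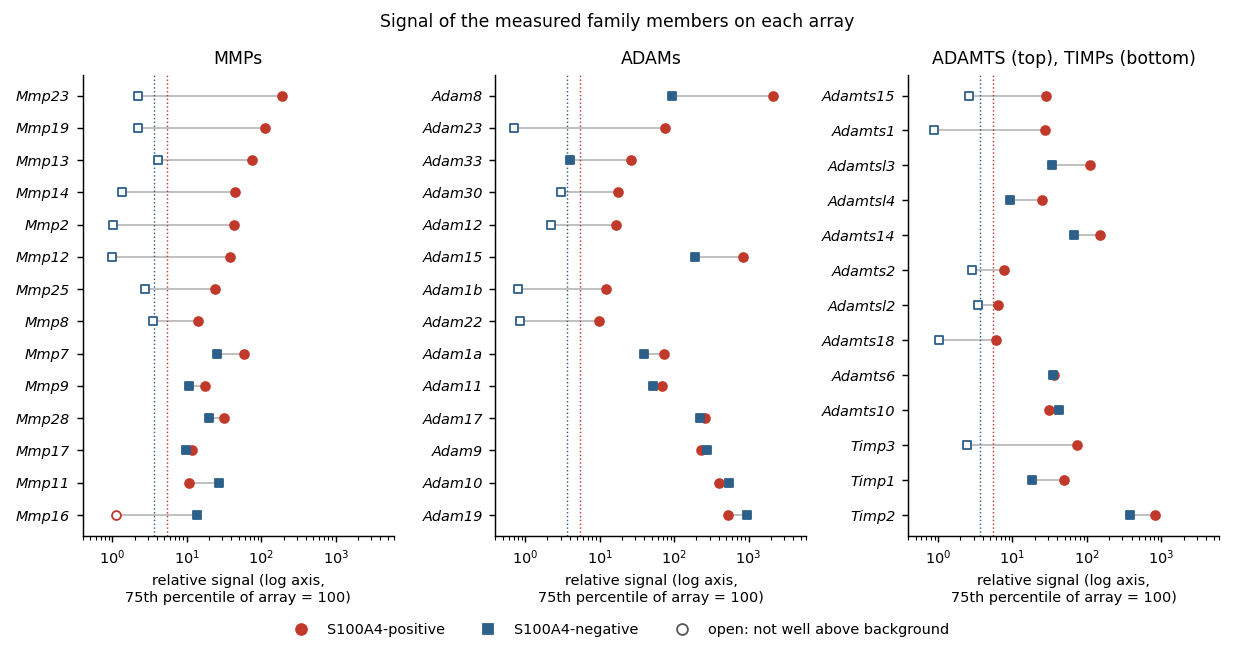
Relative signal of the 41 measured members on the S100A4-positive array (circles) and the S100A4-negative array (squares), on a log axis where 100 is the array's 75th percentile; open symbols were not well above background, and dotted lines mark the lowest signal well above background on each array. Of the 14 MMPs, 8 have an open square and a filled circle, and 1, Mmp16, the reverse.

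Of 23 MMP genes on the array, 14 were measured, and 9 of these were at least 2-fold higher in S100A4-positive cells, 2 were lower and 3 lay within 2-fold. Beside this, 21.3% (higher) and 17% (lower) of all 15246 measured genes were called. For MMPs seen on 1 array only, the detection filter set the direction. Of the 5 MMPs seen on both arrays, Mmp7 passed 2-fold upwards and Mmp11 downwards, with a median difference of 0.67 over the 5. Enzymes that cut fibrillar collagen, gelatin and elastin were among the 8 MMPs that were well above background on the S100A4-positive array alone. Mmp13, the main interstitial collagenase of the mouse, read 75.1 on the S100A4-positive array and 4.14 on the S100A4-negative array (not well above background). It was at least 18.1-fold higher. Mmp8, the collagenase of neutrophil granules, read 14.3 on the S100A4-positive array and 3.54 on the S100A4-negative array (not well above background), at least 3.96-fold higher, but its measured difference became -0.43 on the spike-in scale. Of 4 neutrophil markers 1 was at least 2-fold higher (Ly6g, at 1.73 on the log2 scale, and not after the spike-in shift) and 2 were lower, with summed relative signals of 163 in S100A4-positive and 219 in S100A4-negative cells, and their part in the Mmp8 value was not tested. The gelatinase gene Mmp2 read 43.6 on the S100A4-positive array and 1.02 on the S100A4-negative array, where it was not well above background, which put it at least 12.1-fold higher. The other gelatinase gene, Mmp9, was seen on both arrays and read 17.9 on the S100A4-positive array and 10.74 on the S100A4-negative array, a difference of 0.74 ± 0.26 and within 2-fold, while its second probe was 2.07-fold higher.

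Mmp12, which encodes macrophage elastase, read 38.2 on the S100A4-positive array and 0.98 on the S100A4-negative array, not well above background there, and was at least 10.6-fold higher. Another Mmp12 probe, nearer the 5' end, gave at least 2.14-fold, and the remaining probe was well above background on neither array. Mmp7, or matrilysin, which activates defensins in Paneth cells, read 58.3 on the S100A4-positive array and 25.7 on the S100A4-negative array, a difference of 1.18 ± 0.21, with 1.56 ± 0.26 at its other probe and -1.26 on the spike-in scale. The Paneth cell list went the same way only in part: Lyz1 was 73.7-fold higher, Ang4 higher by at least 2.32 on the log2 scale (a bound smaller in size than the spike-in shift), and the defensin gene Defa24 stood at -0.15. The part of Paneth cells in the Mmp7 value was not tested.

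Membrane-type MMPs were divided. Mmp14, the surface activator of pro-MMP2, read 45.1 on the S100A4-positive array and 1.35 on the S100A4-negative array (not well above background), at least 12.4-fold higher. Mmp25, a membrane-anchored MMP known from leukocytes, read 24.4 on the S100A4-positive array and 2.79 on the S100A4-negative array (not well above background), at least 6.73-fold higher. Mmp17 read 11.8 on the S100A4-positive array and 9.75 on the S100A4-negative array, a difference of 0.28 ± 0.28. Mmp16 went the other way, with 1.13 on the S100A4-positive array, not well above background, and 13.9 on the S100A4-negative array, at least 2.53-fold lower, although its other 2 probes were well above background on neither array. The 2 remaining genes of this class, Mmp15 and Mmp24, were well above background on neither array.

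Among the remaining MMPs, Mmp23 and Mmp19 had the highest bounds of the family. Mmp23, whose product carries a toxin-like domain, read 192 on the S100A4-positive array and 2.25 on the S100A4-negative array (not well above background), at least 53.0-fold higher. Mmp19 read 113 on the S100A4-positive array and 2.25 on the S100A4-negative array, again not well above background, at least 31.3-fold higher at this probe and at least 4.15-fold at the other. Mmp28, or epilysin, lay within 2-fold at 0.67 ± 0.22, with 31.4 on the S100A4-positive array and 19.7 on the S100A4-negative array. Mmp11, or stromelysin-3, known from stromal cells, was lower, with 10.6 on the S100A4-positive array and 27.0 on the S100A4-negative array, a difference of -1.34 ± 0.26. The other stromelysin genes, Mmp3 and Mmp10, were well above background on neither array.

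**Figure D2:**
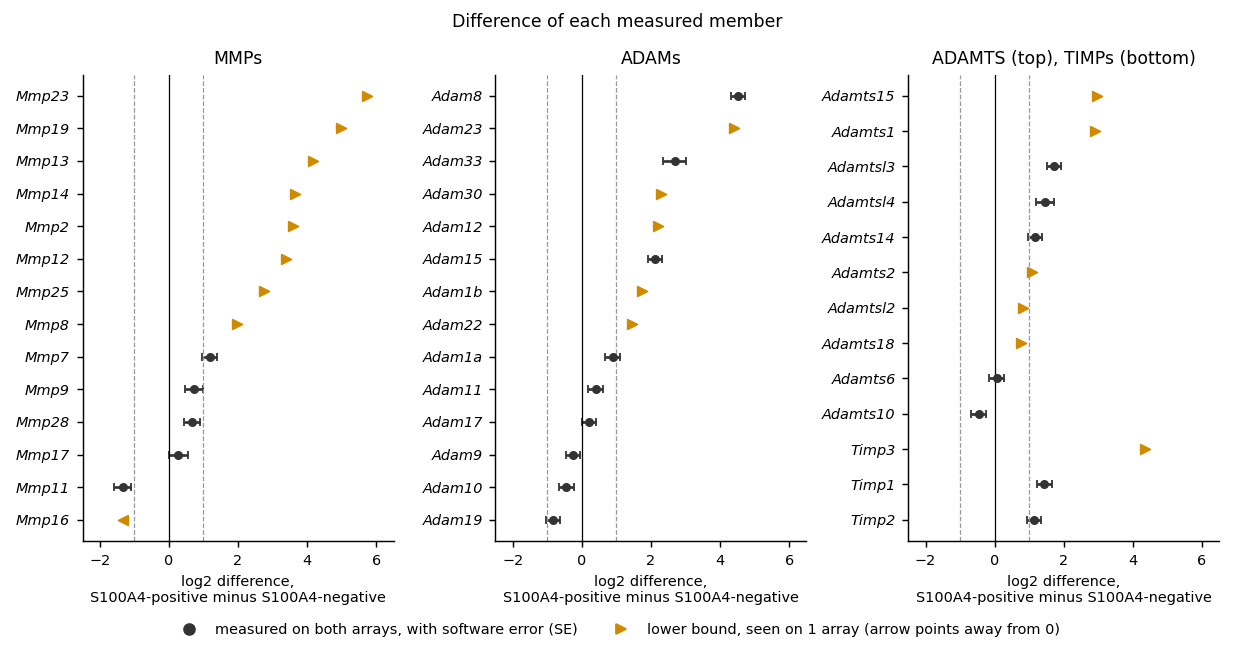
Log2 difference (S100A4-positive minus S100A4-negative, each array on its 75th percentile) of the 41 measured members; circles with bars are members seen on both arrays with the software's error, triangles are lower bounds of members seen on 1 array, and dashed lines mark 2-fold. Of the members, 26 lie at or beyond the right dashed line and 2, Mmp11 and Mmp16, beyond the left one; on the spike-in scale Adam15, Adamts14, Adamts2, Adamtsl3, Adamtsl4, Mmp7, Mmp8, Timp1 and Timp2 change sign.

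Position set 10 of the MMP genes together. The array files place the probes of Mmp13, Mmp12, Mmp1b, Mmp3, Mmp1a, Mmp10, Mmp8, Mmp27, Mmp20 and Mmp7, in that order, between positions 7282762 and 7699535 of chromosome 9 on mouse build mm9. Of these 10 neighbours, 4 were measured, Mmp13, Mmp12, Mmp8 and Mmp7, and all 4 were at least 2-fold higher in S100A4-positive cells, with Mmp7 and Mmp8 below 0 on the spike-in scale. The upward call took 21.3% of all 15246 measured genes. Mmp13, Mmp12 and Mmp8 were seen on the S100A4-positive array alone, so the detection filter set their direction. Mmp7 was the gene of this group seen on both arrays, and the count is no trait of the group. The other 6 were well above background on neither array, so the measured members lie next to members without signal above background. Many MMP promoters are known to hold a binding site for AP-1, the Fos and Jun transcription factor pair, close to the start of the gene, and the letters TGANTCA, which read the same on both strands, were searched in the 300 bases around each annotated start (250 before and 50 after) of RefSeq on build GRCm38.p6. Of the 10 genes in this group 8 held it, all but Mmp8 and Mmp27, with its first base 35 to 95 bases before the start. The N let any base match: the letters of Mmp20 read TGAATCA, and those of the others in this group TGAGTCA or TGACTCA. In all, 53 of the 84 members had a promoter there, of which 13 (24.5%) held the letters, and so did 8.97% of all 27025 genes. Of these 13 members 8 were the chromosome 9 genes. With a promoter there, 5 of 28 measured members (17.9%) and 4 of 20 members at least 2-fold higher (20%) held the letters. A match of letters is a description, not a bound site.

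The 100 bases before the annotated start are shown for the 3 measured genes of the group that hold the letters and for 2 neighbours with no signal above background, so that the shared motif can be seen in both kinds. They run 5′ to 3′ on the gene's strand, here the plus strand of chromosome 9 on GRCm38.p6, with the motif in capitals, and lie at chr9:7272414-7272513 (Mmp13), chr9:7347274-7347373 (Mmp12), chr9:7691990-7692089 (Mmp7), chr9:7445722-7445821 (Mmp3) and chr9:7502242-7502341 (Mmp10).
Mmp13: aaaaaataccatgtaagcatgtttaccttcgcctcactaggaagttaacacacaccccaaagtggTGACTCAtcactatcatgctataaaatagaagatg
Mmp12: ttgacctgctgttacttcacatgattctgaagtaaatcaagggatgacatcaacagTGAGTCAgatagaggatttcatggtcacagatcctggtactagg
Mmp7: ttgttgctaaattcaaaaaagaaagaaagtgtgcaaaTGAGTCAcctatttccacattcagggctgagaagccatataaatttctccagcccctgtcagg
Mmp3: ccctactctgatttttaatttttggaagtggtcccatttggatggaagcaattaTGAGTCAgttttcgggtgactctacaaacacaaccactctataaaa
Mmp10: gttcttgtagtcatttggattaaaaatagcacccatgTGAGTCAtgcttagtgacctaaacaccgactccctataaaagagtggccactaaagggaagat
The motif lies at -35 in Mmp13, -44 in Mmp12, -63 in Mmp7, -46 in Mmp3 and -63 in Mmp10, counted from the annotated start. In the other unmeasured genes with the letters it lies farther off, at -73 in Mmp1a, -93 in Mmp1b and -95 in Mmp20, and the measured Mmp8 does not hold it.

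Of 4 TIMP genes 3 were measured and all 3 were at least 2-fold higher in S100A4-positive cells relative to the 75th percentile, but Timp1 and Timp2 were below 0 on the spike-in scale, at -1.01 and -1.32. The upward call on the 75th percentile scale took 21.3% of all 15246 measured genes. Timp1, the inducible secreted inhibitor, read 49.1 on the S100A4-positive array and 18.2 on the S100A4-negative array, a difference of 1.43 ± 0.22. Timp2, which also takes part in MMP2 activation by MMP14, read 831 on the S100A4-positive array and 381 on the S100A4-negative array, a difference of 1.12 ± 0.20, and its other probe gave 1.99 ± 0.21. Timp3, the inhibitor that binds to matrix and also blocks ADAM17, was well above background on the S100A4-positive array alone at all 3 of its probes, which read 74.3, 72.6 and 45.6 there and 2.48, 0.82 and 0.83 on the S100A4-negative array. These gave at least 20.5-fold, 20.0-fold and 12.6-fold. Timp4 was well above background on neither array.

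ADAMs with a catalytic site outside the testis were, with 1 exception, Adam28, all measured: 4 of 8 were at least 2-fold higher, 4 lay within 2-fold and none was 2-fold lower. Of all 15246 measured genes, 21.3% were called higher and 17% lower. Adam8, a leukocyte ADAM that sheds adhesion molecules, had the largest difference of the members seen on both arrays. It read 2128 on the S100A4-positive array and 93.1 on the S100A4-negative array, a difference of 4.52 ± 0.20 or 22.9-fold, and a second probe that crosses an exon junction gave at least 15.1-fold. Adam15 read 835 on the S100A4-positive array and 193 on the S100A4-negative array, a difference of 2.11 ± 0.20, with 1.86 and 2.23 at its other probes and -0.33 on the spike-in scale. Adam33, known from mesenchymal cells, read 26.1 on the S100A4-positive array and 4.06 on the S100A4-negative array, a difference of 2.68 ± 0.34, and 2 further probes seen on the S100A4-positive array alone gave at least 4.38-fold and 2.24-fold. The remaining Adam33 probes were well above background on neither array. Adam12, or meltrin alpha, read 16.6 on the S100A4-positive array and 2.22 on the S100A4-negative array (not well above background), at least 4.59-fold higher. The other Adam12 probe was well above background on neither array.

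The general sheddases differed less. Adam10, which sheds Notch and the low-affinity IgE receptor, read 398 on the S100A4-positive array and 542 on the S100A4-negative array, a difference of -0.44 ± 0.20, and 0.27 ± 0.23 at its other probe. Adam17, the TNF-converting enzyme, read 262 on the S100A4-positive array and 226 on the S100A4-negative array, a difference of 0.21 ± 0.20. Its other probes gave 0.62 ± 0.20 and 1.17 ± 0.22, so 1 of 3 probes passed 2-fold. Adam9 stood at -0.25 ± 0.20, with 229 on the S100A4-positive array and 274 on the S100A4-negative array. Adam19, or meltrin beta, read 533 on the S100A4-positive array and 947 on the S100A4-negative array, a difference of -0.83 ± 0.20. These 4 genes were seen on both arrays at every probe and lay within 2-fold at the probe used. On the spike-in scale all 4 were more than 2-fold lower, between -2.23 and -3.27, where the median of all measured genes was -2.43.

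ADAMs that lack a catalytic site and act in adhesion, known mainly from nervous tissue, gave a mixed picture between probes. Adam23 read 76.0 on the S100A4-positive array and 0.71 on the S100A4-negative array, not well above background there, at least 21.0-fold higher, and a second probe gave a log2 difference of at least 3.39, while its other 3 probes were well above background on neither array. Adam22 read 9.97 on the S100A4-positive array and 0.85 on the S100A4-negative array (not well above background), at least 2.75-fold higher at 1 of its 3 probes. Adam11 depended on the probe. The probe at chr11:102638157-102638216 (mm9) read 69.2 on the S100A4-positive array and 52.4 on the S100A4-negative array, a difference of 0.40 ± 0.21, whereas the probe at chr11:102641316-102641375 read 553 on the S100A4-positive array and 2.17 on the S100A4-negative array (not well above background), at least 153-fold. Which exon or transcript these probes report was not analysed here, so no direction is drawn for Adam11.

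**Figure D3:**
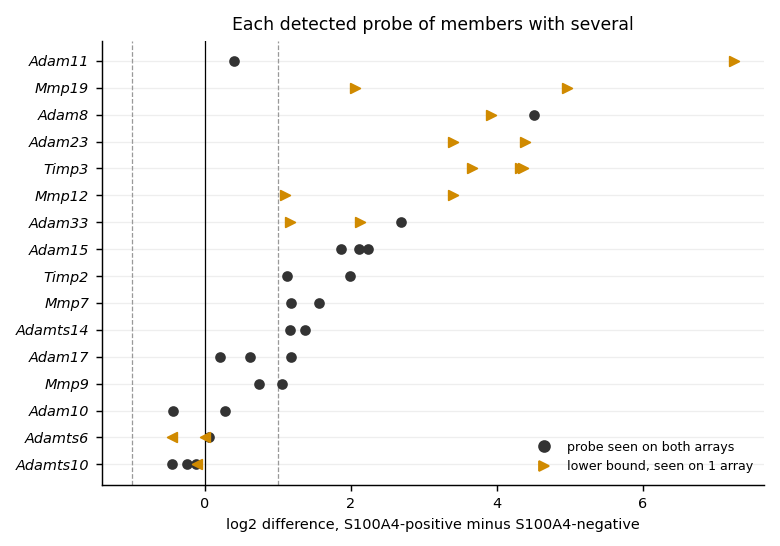
Log2 difference (S100A4-positive minus S100A4-negative, on the 75th percentile scale) at every detected probe of the 16 members with several; circles are probes seen on both arrays, triangles are lower bounds of probes seen on 1 array, and dashed lines mark 2-fold. The Adam11 probes lie at 0.40 and at least 7.25, while the 3 Adam15 probes lie between 1.86 and 2.23.

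Probes whose genomic span exceeds their own length cross an exon junction, and they are shown for 5 members the account turns on: the second Adam8 probe, the Adam23 probe used, the single Mmp16 probe with a signal, the Mmp9 probe used and the Timp2 probe with the larger difference. Their positions on mm9 are chr7:147171312-147171769 (Adam8, minus strand), chr1:63614541-63617541 (Adam23, plus), chr4:17914830-17923362 (Mmp16, plus), chr2:164779091-164780300 (Mmp9, plus) and chr11:118171964-118178741 (Timp2, minus), each longer than the 60 bases of the probe. The sequences are those of the array files, with no base marked.
Adam8: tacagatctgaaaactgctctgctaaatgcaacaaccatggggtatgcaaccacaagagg
Adam23: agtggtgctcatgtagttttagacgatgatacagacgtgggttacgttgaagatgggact
Mmp16: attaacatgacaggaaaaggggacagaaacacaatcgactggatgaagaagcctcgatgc
Mmp9: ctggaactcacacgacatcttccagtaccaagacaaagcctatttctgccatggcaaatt
Timp2: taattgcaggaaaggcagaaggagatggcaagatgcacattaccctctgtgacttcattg
At these probes the relative signals were 55.8 for Adam8, 76.0 for Adam23, 1.13 for Mmp16, 17.9 for Mmp9 and 261 for Timp2 on the S100A4-positive array. On the S100A4-negative array they were 3.68 for Adam8, 0.71 for Adam23, 13.9 for Mmp16, 10.74 for Mmp9 and 65.5 for Timp2, with Adam8 and Adam23 not well above background there and Mmp16 not well above background on the S100A4-positive array.

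ADAMs known mainly from the testis mostly gave no signal above background. Of 21 such or otherwise unclassified ADAM genes 18 were well above background on neither array: Adam2, Adam3, Adam4, Adam5, Adam6a, Adam6b, Adam7, Adam18, Adam20, Adam21, Adam24, Adam25, Adam26a, Adam26b, Adam29, Adam32, Adam34 and Adam39. The exceptions were Adam1a, with 74.1 on the S100A4-positive array and 40.0 on the S100A4-negative array (0.89 ± 0.21), Adam30, with 17.6 on the S100A4-positive array and no signal well above background on the other (at least 4.87-fold higher), and Adam1b, with 12.2 on the S100A4-positive array and 0.79 on the S100A4-negative array at 1 of 2 probes (at least 3.37-fold higher, not well above background in S100A4-negative cells). Adam1a and Adam1b are similar neighbours, so their values are uncertain. The array files place 12 of the ADAM genes that lack a signal with Adam9 on chromosome 8, between positions 25712756 and 58350510, where Adam9 was the measured gene.

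Of 24 ADAMTS and ADAMTS-like genes 10 were measured, and 6 of these were at least 2-fold higher in S100A4-positive cells. None was 2-fold lower. The same calls took 21.3% (higher) and 17% (lower) of all 15246 measured genes. Of the 10, 5 were seen on the S100A4-positive array alone, among them Adamts1, Adamts15 and Adamts2, so the detection filter set their direction. Of the 5 seen on both arrays, Adamts14, Adamtsl3 and Adamtsl4 passed 2-fold upwards, while Adamts6 and Adamts10 lay within it. The median difference of these 5 was 1.16. Relative to the spike-in controls, 4 of the 6 higher genes, Adamts2, Adamts14, Adamtsl3 and Adamtsl4, were below 0. Adamts1, a proteinase of the proteoglycans aggrecan and versican, read 27.2 on the S100A4-positive array and 0.89 on the S100A4-negative array (not well above background), at least 7.51-fold higher. Adamts15, another proteoglycan-cleaving member, read 28.3 on the S100A4-positive array and 2.61 on the S100A4-negative array (not well above background), at least 7.80-fold higher. The procollagen processing enzymes were represented by Adamts14 and Adamts2. Adamts14 read 151 on the S100A4-positive array and 67.6 on the S100A4-negative array, a difference of 1.16 ± 0.20 and 1.38 ± 0.22 at its probes, and Adamts2 was at least 2.11-fold higher, with 7.63 on the S100A4-positive array and 2.90 on the S100A4-negative array (not well above background). The Adamts2 call was also lost with normexp, quantile and cyclic loess normalization, no scaling and the deposited value table, and its other 2 probes were well above background on neither array.

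The ADAMTS-like proteins, which lack the proteinase domain and are known from fibrillin-rich matrix, included 2 genes seen on both arrays. Adamtsl3 read 111 on the S100A4-positive array and 33.7 on the S100A4-negative array, a difference of 1.72 ± 0.21, and Adamtsl4 read 25.2 on the S100A4-positive array and 9.24 on the S100A4-negative array, a difference of 1.45 ± 0.26, both turning below 0 on the spike-in scale. The second probes of Adamtsl3 and Adamtsl4 were well above background on neither array. Adamtsl2 and Adamts18, seen on the S100A4-positive array alone, had bounds under 2-fold (at least 1.78-fold and 1.68-fold). Adamts6 and Adamts10 stood at 0.05 ± 0.21 and -0.46 ± 0.22 on the log2 scale. At Adamts6, 2 further probes were seen on the S100A4-negative array alone.

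The members that were well above background on neither array numbered 43. Beside those already named they were the MMP genes Mmp1a, Mmp1b, Mmp20, Mmp21 and Mmp27, the proteoglycanase genes Adamts4 and Adamts5, the further ADAMTS genes Adamts3, Adamts7, Adamts8, Adamts9, Adamts12, Adamts13, Adamts16, Adamts17, Adamts19 and Adamts20, Adamtsl1, Adamtsl5, and Adam28, a lymphocyte ADAM for which all 3 probes lay between 1.17 and 1.89 on the S100A4-positive array and between 0.83 and 1.07 on the S100A4-negative array. For these genes a difference was not detectable at this signal.

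**Figure D4:**
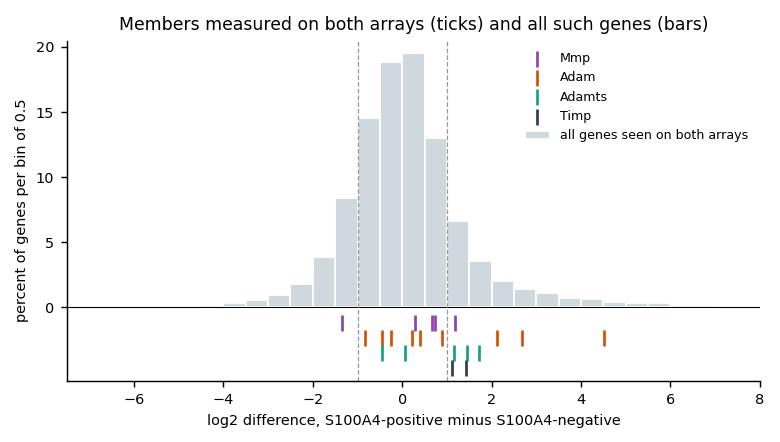
Log2 differences (S100A4-positive minus S100A4-negative, on the 75th percentile scale) of all 12951 genes seen on both arrays (bars, percent of genes per bin of 0.5) and of the 21 members seen on both (ticks below, by family); dashed lines mark 2-fold. Of the ticks 9 lie to the right of the dashed lines and 1 to the left.

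Genes that regulate these proteinases, or are cut by them, were set beside the family as a list of 47, of which 44 were measured. Past 2-fold, 18 of these were higher in S100A4-positive cells and 7 lower, where the same calls took 21.3% (higher) and 17% (lower) of all 15246 measured genes. These counts rest on the probe used. Hyal2, counted as lower at -1.05 on the log2 scale, gave 1.20 at another probe, so no direction is drawn for it. Furin and Tspan33, counted within 2-fold at 0.44 and 0.29, gave 2.64 and 3.04 at another probe. Of 8 measured genes of the plasminogen system, which activates several pro-MMPs through plasmin, 4 were higher and 2 lower: Serpine2, a protease inhibitor, read 1844 on the S100A4-positive array and 15.0 on the S100A4-negative array, 123-fold higher, with 2.68 on the log2 scale at another probe, and Plau, which encodes urokinase, read 130 on the S100A4-positive array and 5.59 on the S100A4-negative array, 23.2-fold higher, with 1.21 at another probe. The urokinase receptor gene Plaur lay within 2-fold at 0.63. Among 8 partners of ADAM17 and ADAM10, 2 were higher and 1 lower, and Rhbdf2, an iRhom that carries ADAM17 to the surface, stood at 0.40. Tspan5, a tetraspanin partner of ADAM10, was the lower one, with 72.2 on the S100A4-positive array and 330 on the S100A4-negative array, a difference of -2.19. The larger of the higher values was that of Tspan10, another tetraspanin of this kind, with 38.7 on the S100A4-positive array and 0.89 on the S100A4-negative array (not well above background), higher by at least 3.42 on the log2 scale.

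Of 12 genes whose products are shed from the cell surface, mostly by ADAM10 or ADAM17, 8 passed 2-fold upwards and 1 downwards, and 3 lay within it. Of all 15246 measured genes, 21.3% passed 2-fold upwards and 17% downwards. Csf1r is counted here and again among the macrophage and monocyte markers below. Tnf, the substrate after which ADAM17 was named TACE, read 989 on the S100A4-positive array and 92.9 on the S100A4-negative array, a log2 difference of 3.41. Hbegf, an EGF receptor ligand, read 529 on the S100A4-positive array and 44.5 on the S100A4-negative array, 11.9-fold higher, and the TNF receptor gene Tnfrsf1a was 7.50-fold higher. The chemokine genes Cx3cl1 and Cxcl16 were 111-fold and 86.7-fold higher and Csf1r 82.3-fold, although the lowest probe of Cx3cl1 gave 1.03 and that of Csf1r 1.54 on the log2 scale. Fcer2a, the low-affinity IgE receptor of B cells, was the gene of this list that was lower, with 52.6 on the S100A4-positive array and 2112 on the S100A4-negative array, 40.1-fold lower. The genes for ADAM10 and ADAM17 themselves were within 2-fold at the probe used, as given above. Adamdec1, an ADAM-like gene known from gut macrophages whose name lies outside the family's rule, read 640 on the S100A4-positive array and 151 on the S100A4-negative array, 4.23-fold higher (2.08 on the log2 scale, and below 0 after the spike-in shift of -2.44). On the spike-in scale 6 of the 44 genes passed 2-fold upwards and 29 downwards, beside 4.03% (upwards) and 82.6% (downwards) of all measured genes. The 6 were Serpine2, Plau, Cx3cl1, Cxcl16, Csf1r and Hbegf. After that shift Tnf (3.41), Tnfrsf1a (2.91) and Tspan10 (at least 3.42) were no longer past 2-fold upwards.

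**Figure D5:**
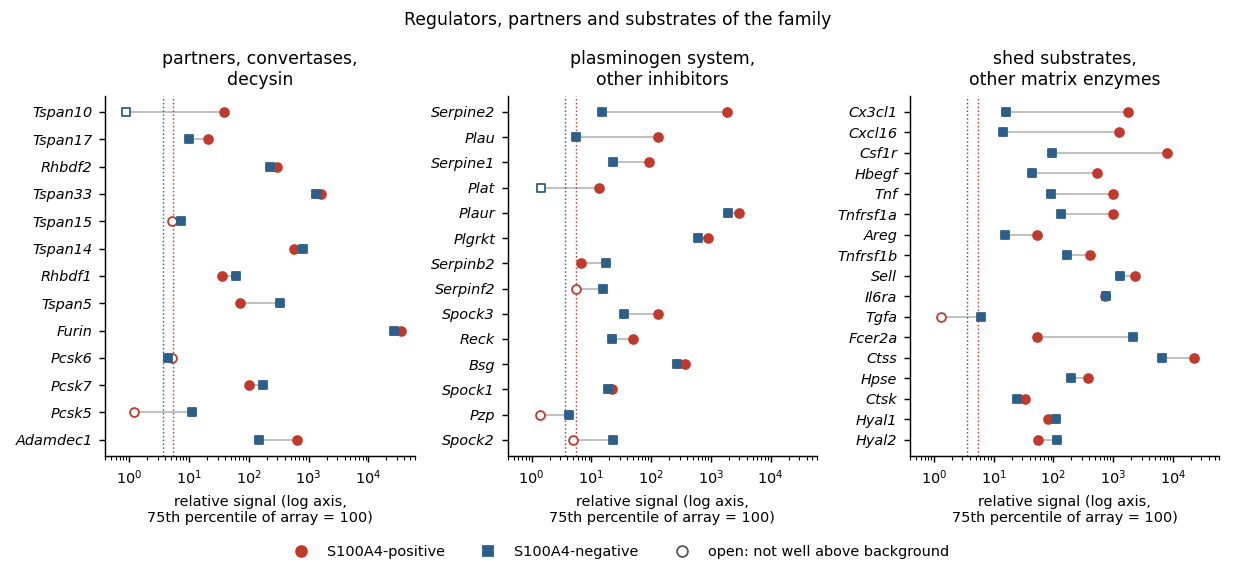
Relative signal of the 44 measured regulators, partners and substrates on the S100A4-positive array (circles) and the S100A4-negative array (squares), on a log axis where 100 is the array's 75th percentile; open symbols were not well above background. Serpine2 (1844 in S100A4-positive and 15.0 in S100A4-negative cells), Cx3cl1 and Cxcl16 have the widest gaps to the right and Fcer2a (52.6 in S100A4-positive and 2112 in S100A4-negative cells) to the left.

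Markers of several cell types differed between the fractions alongside these genes. All 8 macrophage and monocyte markers were at least 2-fold higher in S100A4-positive cells (Adgre1, at 3.08 on the log2 scale, and Mertk, at least 2.55, were within 2-fold after the spike-in shift), with summed relative signals of 18501 in S100A4-positive and 401 in S100A4-negative cells, and Fcgr1 and Mertk were not well above background in S100A4-negative cells. All 5 dendritic cell markers were higher (Flt3, at 1.53 on the log2 scale, not after the spike-in shift of -2.44), with sums of 8188 in S100A4-positive and 683 in S100A4-negative cells. Of 3 plasmacytoid dendritic cell markers Klk1 (146-fold) and Bst2 (18.1-fold) were higher, with sums over the 3 of 14184 in S100A4-positive and 4230 in S100A4-negative cells. Siglech depended on the probe, at 0.37 on the log2 scale at the probe used and 7.27 at another, so no direction is drawn for it. Of 3 mast cell markers Kit (15.3-fold) and Cpa3 (2.25-fold, not after the spike-in shift) were higher and Mcpt1 was lower, with sums of 1350 in S100A4-positive and 188 in S100A4-negative cells. Of 5 endothelial markers 4 were measured and 3 were higher, with sums of 325 in S100A4-positive and 60.5 in S100A4-negative cells; Cdh5 and Kdr were not well above background in S100A4-negative cells, and Tek in neither sample. Of 7 fibroblast markers 6 were measured, of which Lum, Dcn and Thy1 were higher (Dcn, at 1.20, and Thy1, at 2.04, not after the spike-in shift), Col1a1 was lower and Col1a2 and Col3a1 were within 2-fold. Their sums were 7649 in S100A4-positive and 1910 in S100A4-negative cells, mostly from Thy1, which T cells also express (7439 in S100A4-positive and 1812 in S100A4-negative cells), and Pdgfra was well above background in neither sample. All 5 B cell markers were lower, with sums of 1873 in S100A4-positive and 36118 in S100A4-negative cells, and so were all 5 T cell markers, with sums of 1151 in S100A4-positive and 11952 in S100A4-negative cells. Of 7 epithelial markers 6 were lower (sums of 320 in S100A4-positive and 3028 in S100A4-negative cells), and all 4 goblet cell markers were (21.8 in S100A4-positive and 2847 in S100A4-negative cells). The part of any of these cell types in the values of the MMP, ADAM, ADAMTS and TIMP genes was not tested.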

How the data were processed

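RNA from each fraction was amplified and Cy3-labelled for its own 1-colour array (2 arrays, Agilent design 74809), per the labels' protocols and the file headers. The authors extracted the deposited processed intensity of each spot with Agilent Feature Extraction 10.7.1.1, per the file headers (9.5.1.1 per the submitters' processing notes), background-subtracted, detrended and with surrogate values for dim spots, but not normalized between arrays. The software's flags, another deposited kind of value, were taken as given. Of 59305 non-control spots, 31042 (52.3%) on the S100A4-positive and 31595 (53.3%) on the S100A4-negative array were well above background and none was saturated. The median raw signal was 5.35 times the local background on the S100A4-positive and 6.80 times on the S100A4-negative array.

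Outlier spots were left out (none was a member's), log2 signals were centred on each array's 75th percentile, and spots of a probe were averaged. All genes were named through RefSeq accessions, symbols and synonyms (GRCm38.p6), members by the array's own name. A gene took its probe with the highest mean log2 signal among its detected probes (those well above background on either array). For a bound, the bright signal was divided by the dim probe's own signal or, if higher, by the dim array's detection floor, the lowest signal called well above background. No test is possible with 1 array per group, so differences of 2-fold were counted (bounds included), and the number of arrays limits the precision. The steps were tested on simulated data with differences planted at probes seen on both arrays. Both simulated arrays shared their detection flags, so the bounds were not tested.

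The members, lists and tests were chosen with earlier results of these data known. The plan gave values for members at least 2-fold different, all measured TIMPs, a list of well-known MMPs and ADAMs and those with disagreeing probes. Beyond the plan, every other measured member is also given with a value. Members well above background on neither array are given by name, Adam28 also with its signals. At most 10 regulators and substrates are given by size, with Plaur, Rhbdf2, Tspan5 and Adamdec1 chosen after their values were seen. Furin, Hyal2 and Tspan33 were added because their probes disagree, also after their values were seen. Alternatives were normexp (offset 50), quantile and cyclic loess normalization (limma 3.58.1, R 4.3.3), the same percentile taken only over commonly detected probes, spike-in or no scaling, other filters and probe rules, and the deposited value table of intensities, for which the sources used here state no normalization. The deposited value table had a median of 19.6 on both arrays over 56605 probes, so it was already on a common scale. Other steps used Python 3.11.15, numpy 2.4.6, pandas 2.3.3 and matplotlib 3.10.9.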

Additional observations from a re-analysis of the deposited data

How the results depend on the processing

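No paired analysis was possible because each group has 1 array, and for the same reason no replicate could be left out. Median log2 differences (S100A4-positive minus S100A4-negative) below are over measured members, with members seen on 1 array at their measured signal unless stated. With the main settings they were 1.72 (MMPs 2.57, ADAMs 2.33, ADAMTS 1.42, TIMPs 1.43), against 0.02 over all measured genes. Members that passed the filter only through their bright array had to differ, so these medians are not a measure of the family's difference. With spike-in scaling the median was -0.73 (MMPs 0.13, ADAMs -0.11, ADAMTS -1.02, TIMPs -1.01), 8 members passed 2-fold upwards and 17 downwards, and 6 regulators and substrates upwards and 29 downwards, where all measured genes had a median of -2.43 with 4.03% upwards and 82.6% downwards. The members that changed sign were Adam15 (-0.33), Adamts14 (-1.28), Adamts2 (-1.05), Adamtsl3 (-0.73), Adamtsl4 (-0.998), Mmp7 (-1.26), Mmp8 (-0.43), Timp1 (-1.01) and Timp2 (-1.32), as the construction of a shift of -2.44 in every difference implies. With no scaling the median was 1.08 (MMPs 1.94, ADAMs 1.70, ADAMTS 0.79, TIMPs 0.80), with 19 members upwards, 5 downwards and 12 regulators and substrates downwards, where all genes had a median of -0.62 with 12.9% upwards and 35.0% downwards. With normexp the median was 0.98 (MMPs 1.14, ADAMs 1.08, ADAMTS 0.86, TIMPs 0.98), 0 members and 2 regulators and substrates passed downwards, and 17 of the 26 upward calls were kept. Quantile normalization gave 2.19 for MMPs and 1.15 for ADAMTS, the deposited values gave 2.20 for MMPs and 1.16 for ADAMTS, and cyclic loess 2.30 for MMPs. Each of these 3 lost Adamts2 alone among the calls. With probes detected on both arrays only, fewer genes were left, with a median of 0.74 (MMPs 0.67, ADAMs 0.40, ADAMTS 1.16), 9 members upwards, 1 downwards and 4 regulators and substrates downwards. With no filter on dim probes the median was 0.73 (MMPs 0.69, ADAMs 0.62, ADAMTS 0.79). The median over probes gave 2.02 (ADAMs 2.73), the dimmest probe 2.02 (ADAMs 2.73, TIMPs 1.99), and members seen on 1 array set at their bound 1.45 (ADAMs 1.61, ADAMTS 1.12). The percentile over probes detected on both arrays kept all 26 upward and 2 downward calls. For the other settings the cause was not tested. Members near the detection floor of 5.48 on the S100A4-positive and 3.62 on the S100A4-negative array are limited by signal over background.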
